A study of Mus musculus with 12 samples.

Results

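Knockdown of *Ddx5* in cytokine-stimulated ATDC5 cells was compared with a control hairpin, in 6 of the 12 RNA-seq libraries of the study. ATDC5 is a chondrogenic line made from mouse teratocarcinoma cells. Every culture carried a hairpin cassette that a lentivirus had inserted into the genome, either shRNA-NC, the negative control, or shRNA-*Ddx5*. The shRNA-*Ddx5* cells had been selected with puromycin. The 6 libraries were from cells given IL-1β together with TNF-α and collected at 6 h, 3 with each hairpin. The other 6, also 3 with each hairpin, were from cells without stimulation and are used below only to ask whether a difference was also measured without cytokines. A single hairpin against *Ddx5* was used in a single stable line, so that effects of the hairpin, the line and the loss of *Ddx5* cannot be told apart. Of 46731 genes in the table, 11695 had an FPKM (fragments scaled to gene length and to library depth) of at least 1 in at least 3 of the 6 cytokine-treated libraries and were tested. The fibrillar collagens and a few genes that the study itself names were set aside, and the account covers the other programs that moved.

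DDX5 is a DEAD-box RNA helicase that acts in splicing and RNA processing and as a partner of transcription factors. IL-1β and TNF-α signal through NF-κB and the MAP kinases, and in cells of cartilage they switch on chemokines, acute-phase proteins and matrix proteases. Interferon-stimulated genes are read from promoters that bind IRF and STAT proteins. Immediate-early genes such as *Egr1* and the phosphatases and Sprouty proteins that damp ERK are transcribed when the ERK pathway is active.

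*Ddx5* itself, on chromosome 11, minus strand, 106671181 to 106680011 in GRCm39, checked the labels. Its level was 327, 302 and 301 FPKM in the 3 shRNA-NC libraries with cytokines and 101, 93.6 and 104 FPKM in the 3 shRNA-*Ddx5* libraries. The groups did not overlap, and the fall was -1.63 on the log2(FPKM + 1) scale used for all fold changes (SE 0.10, limma p after Benjamini-Hochberg adjustment = 7.6e-07). Its close relative *Ddx17*, on chromosome 15 from 79411897 to 79430976, stood at 25.5, 32.7 and 32.3 FPKM in the control and at 87.3, 87.8 and 88.8 FPKM in the knockdown. *Ddx17* rose by 1.52 (standard error 0.09, limma adjusted p = 6.4e-07). Among 39 tested DEAD-box and DEAH-box helicases 13 rose (33.3%) and 7 fell (17.9%), against 24.0% and 22.7% of all tested genes. *Ddx17* and *Ddx5* had the largest rise and the largest fall, and 8 helicases rose without knockdown replicate 2.

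The 6 libraries held 16036141 to 18486611 fragments on genes. The first principal component of the tested genes took 78.5% of the variance and separated the hairpins. The 3 control libraries were less alike than the 3 knockdown libraries, with correlations of log2 values of 0.980 to 0.992 against 0.993 to 0.994. Control replicate 1 stood apart on the second component (10.4%) and had 2.88% of its fragments on mitochondrial genes against 1.65 to 1.85% in the other 5. Control replicate 2 lay nearest to the knockdown libraries. For several strongly induced genes its level was intermediate, as in *Saa3*, where replicates 1, 2 and 3 of the control read 36.3, 278 and 79.1 FPKM. The part of either library in the results was not tested, and values without single libraries are given for *Saa3*, *Igfbp5*, *Mgp* and *Alpl* and where a count moved. Defining markers of endothelial cells, epithelium and skeletal muscle were near 0 in all 6 libraries. The 6 endothelial markers summed to 0.0673 to 0.169 FPKM in the control and 0.0404 to 0.128 in the knockdown, and the 9 macrophage markers to 1.70 to 2.36 and 2.23 to 2.83 FPKM. Of 12 chondrocyte markers only 3 passed the filter, so the labelled cell type was weakly marked at this stage. Their sum over all 12 ran from 14.1 to 20.7 FPKM in the control and from 7.67 to 8.90 in the knockdown. Most of it lay in the 3 tested, *Sox9*, *Col11a2* and *Col2a1*, which were lower in the knockdown. *Col2a1*, a fibrillar collagen otherwise set aside, ran from 3.64 to 8.85 FPKM in the control and from 0.735 to 0.817 in the knockdown. It passed the filter through the control alone and could only fall. At very low levels, *Acan*, *Hapln1* and *Col9a1* went the other way. The 10 fibroblast markers summed to 28.6 to 51.4 and to 103 to 107 FPKM. Most of it was *Pdgfrb* (10.9 to 21.3 and 39.2 to 43.4) and *Postn* (10.7 to 20.9 and 47.4 to 54.8). Only 5 of the 10 were tested, of which 4 rose and *Col6a3* did not pass. The 4 include *Dcn*, which passed the filter through the knockdown alone and could only rise. *Thy1*, *Fap*, *Cd34* and *Dpt* were near 0 in both groups. In bulk RNA, a change in the number of cells of a kind and a change in RNA per cell cannot be told apart.

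Across the 11695 genes, 5469 (46.8%) passed an adjusted p of 0.05 with cytokines. Of these 2810 were higher in the knockdown (24.0% of the genes tested) and 2659 lower (22.7%). The median log2 fold change of all tested genes was 0.01. An absolute log2 change of at least 1 was reached by 785 of the genes called, 443 up and 342 down. The groups of 3 did not overlap for 7321 genes (62.6%), so that calls and separated groups were common and the count of any one list has to be read against these shares. A gene could pass the filter through the libraries of 1 hairpin alone, as 455 did (229 of them through the knockdown), and such genes had to differ. The counts of each list below are therefore a description of its tested members. Under the filter were 6 of 24 acute-phase, 21 of 30 complement, 11 of 48 interferon-stimulated, 9 of 21 GTPase, 6 of 28 immediate-early, 6 of 24 ERK-feedback and 19 of 29 non-fibrillar collagen genes.

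**Figure D1:**
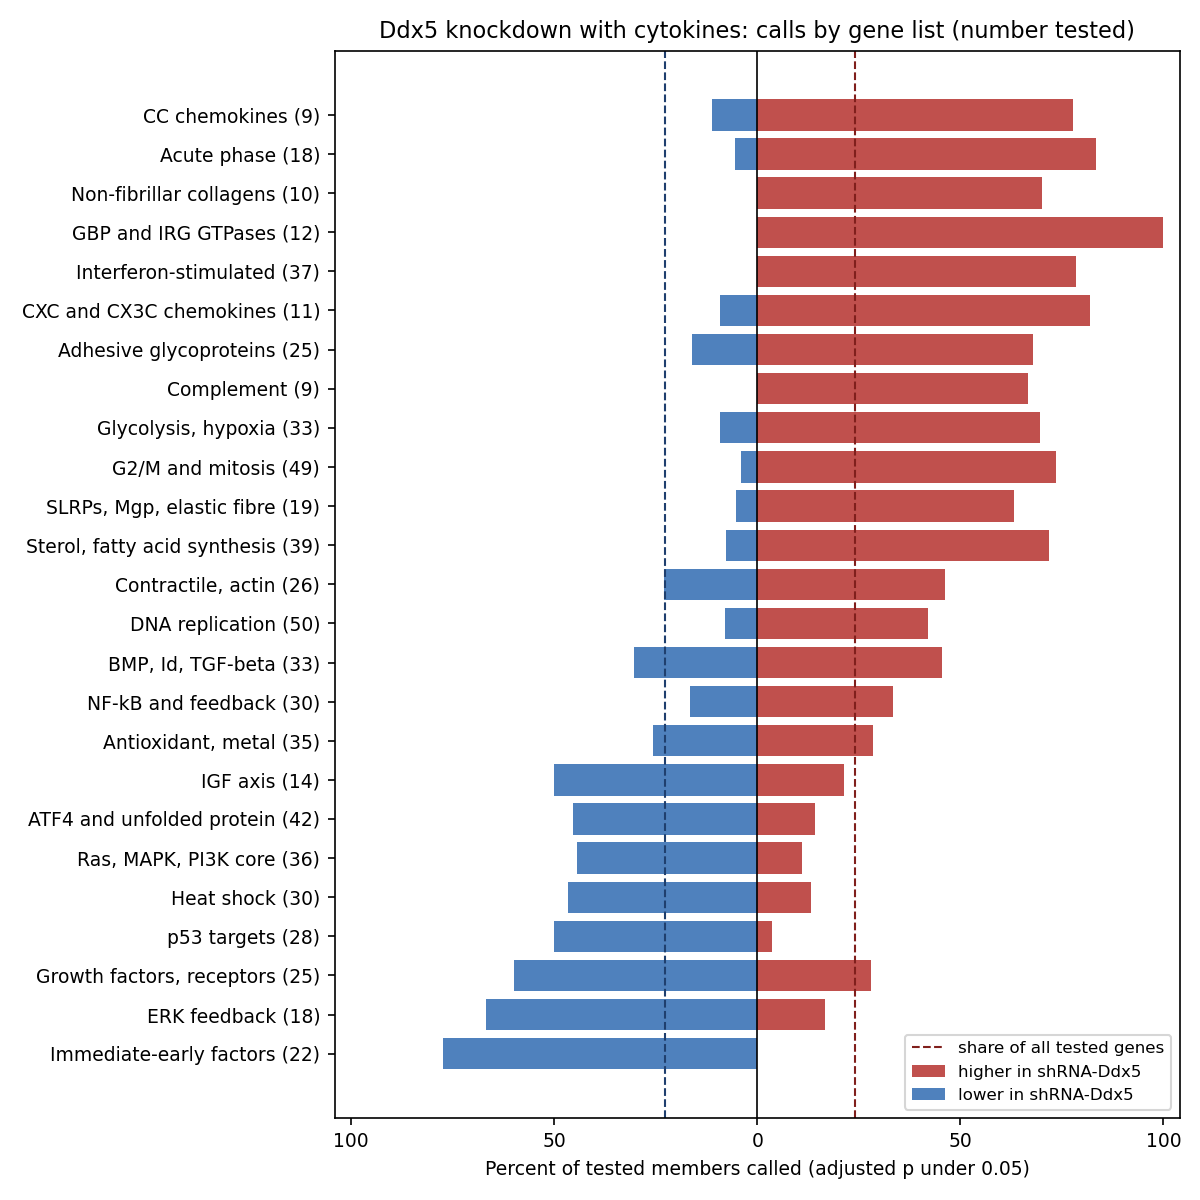
Percent of the tested members of 25 gene lists that were called higher (red bars, right) or lower (blue bars, left) in shRNA-*Ddx5* than in shRNA-NC cells with cytokines, ordered by median log2 fold change. The dashed lines are the shares over all tested genes, 24.0% and 22.7%. All 12 tested GBP and IRG genes were higher, among them *Iigp1*, which could only rise, and 17 of 22 immediate-early factors were lower with none higher.

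The largest rises by the rule for named genes are given first. *Igfbp5*, a binding protein for insulin-like growth factors, read 1.53, 5.15 and 3.00 FPKM in the control and 102, 102 and 91.1 FPKM in the knockdown, a rise of 4.64 (standard error 0.25, limma adjusted p = 2.7e-07). *Igfbp3*, of the same family, went from 34.1, 41.3 and 32.8 to 268, 307 and 284 FPKM, a rise of 2.96. In both genes the groups were far apart. *Mgp*, the matrix Gla protein that inhibits calcification, read 0.291, 2.60 and 0.431 FPKM in the control and 20.6, 20.7 and 18.8 FPKM in the knockdown, a rise of 3.48. *Alpl*, the tissue-nonspecific alkaline phosphatase of mineralizing cells, read 0.0324, 1.10 and 0.0432 and 10.9, 13.7 and 12.8 FPKM, a rise of 3.35. Control replicate 2 was the highest of the 3 control libraries in each of these 4 genes. With 1 library left out, the rise of *Igfbp5* ran from 4.32 to 4.96, that of *Mgp* from 3.21 to 3.95 and that of *Alpl* from 3.18 to 3.69. *Rspo3*, an enhancer of Wnt signalling, had 0.175, 0.334 and 0.133 FPKM in the control against 11.3, 10.05 and 11.3, and rose by 3.29. The other rises named by the same rule were *Cd74* (3.24), the invariant chain of MHC class II, *Grb14* (3.16), an adaptor of the insulin receptor, *Cacna1g* (3.00), a T-type calcium channel, the membrane proteins *Tmem176a* (2.99) and *Tmem176b* (2.87), and *Nsg1* (2.79), an endosomal protein of neurons. *Rspo3* and *Nsg1*, under 1 FPKM in every control library, passed the filter through the knockdown alone and could only rise. *Saa3*, *Lcn2*, *Ptx3* and *Ccl3* completed the 15 and are described with their groups.

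Acute-phase and innate genes rose. Of 18 tested members 15 rose (83.3%, against 24.0% of all tested genes) and 1 fell. The median log2 fold change was 1.28 against 0.01 over all genes. The rises include *Ptx3*, *Steap4*, *Lbp*, *Hp* and *Saa2*, which stayed under 1 FPKM in every control library. These genes passed the filter through the knockdown alone and could only rise. *Saa3*, serum amyloid A3, read 1785, 2182 and 1909 FPKM in the knockdown, above every control library, and rose by 4.37 (standard error 0.51, limma adjusted p = 4.6e-05). Without control replicate 2 the rise was 5.16, and without replicate 1 it was 3.71. *Lcn2*, the siderophore-binding lipocalin, had 4.84, 20.3 and 3.87 FPKM in the control and 95.7, 106 and 106 FPKM in the knockdown, a rise of 3.61 (limma adjusted p = 3.3e-05). *Ptx3*, a long pentraxin of innate recognition, went from 0.0623, 1.000 and 0.111 to 10.01, 11.5 and 11.3 FPKM, a rise of 3.16. *Serpina3g*, a serine protease inhibitor of a family whose copies share sequence, so that its value is uncertain, rose by 2.63. *Steap4*, a metalloreductase, rose by 2.41 and the zinc and iron carrier *Slc39a14* by 1.83. *Lbp*, *Hp* and *Saa2*, plasma proteins of the acute phase of the liver, rose from low levels. Their mean FPKM went from 0.0916 to 1.72, from 0.0942 to 1.48 and from 0.129 to 1.66. The exception was *Il4ra*, the receptor chain for IL-4, which fell by 0.33 and lost the call without any 1 of 5 libraries, while *Mt1* and *Mt2*, the metallothioneins, differed by 0.04 and -0.04 and did not pass. With each library left out in turn, between 14 and 15 of the 18 acute-phase genes rose.

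Complement genes rose in 6 of 9 cases with none falling (median 0.75). *C3*, the central component, read 0.172, 1.92 and 0.276 FPKM in the control and 7.88, 8.14 and 7.74 FPKM in the knockdown. It rose by 2.45 (limma adjusted p = 2.3e-05). The subunits of the first component rose by 2.00 (*C1s1*) and 1.32 (*C1ra*), and *Cfb*, factor B, differed by 0.27 without passing the test.

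**Figure D2:**
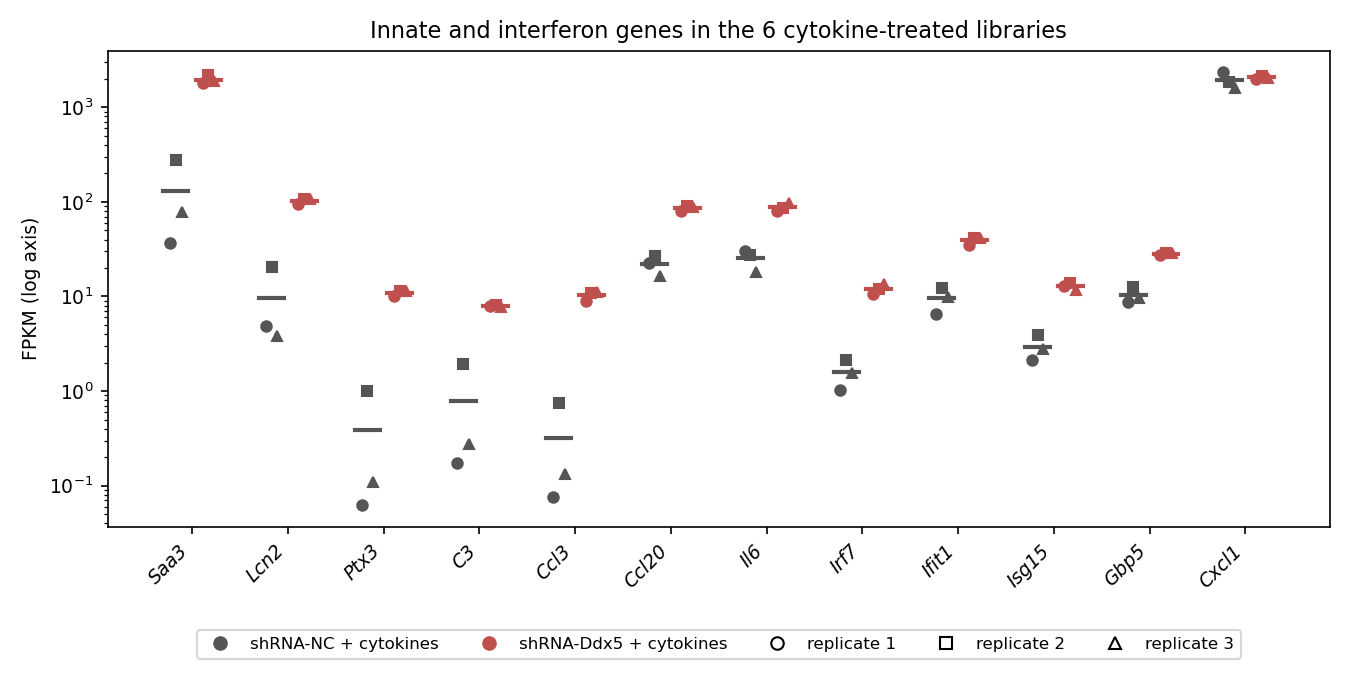
FPKM on a log axis for 12 genes of innate and interferon responses in the 3 shRNA-NC (grey) and 3 shRNA-*Ddx5* (red) libraries with cytokines, with replicates as circles, squares and triangles and the group means as bars. The red points lie above all grey points in 11 genes, and in *Cxcl1* the groups overlap. Control replicate 2 (grey squares) is the highest control library for *Saa3*, *Lcn2*, *Ptx3*, *C3* and *Ccl3*.

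Interferon-stimulated genes moved almost in 1 direction. Of 37 tested, 29 rose and 0 fell, with a median of 0.86. *Irf7*, the transcription factor that amplifies type I interferon, read 1.02, 2.15 and 1.57 FPKM in the control and 10.7, 11.9 and 13.5 FPKM in the knockdown, a rise of 2.35 (limma adjusted p = 1.2e-06). *Ifit1*, which binds RNA with foreign 5′ ends, went from 6.56, 12.3 and 9.84 to 34.6, 41.5 and 41.4 FPKM, a rise of 1.96 (standard error 0.19). *Isg15*, a ubiquitin-like modifier, went from 2.14, 3.88 and 2.82 to 12.9, 14.1 and 11.6 FPKM and rose by 1.83. None of these groups overlapped. *Usp18*, which removes ISG15, rose by 2.05, the signal transducer *Stat2* by 0.86, and the factor *Irf1* by 1.23. The RNA sensors *Ddx58* (RIG-I), *Dhx58* and *Ifih1* (MDA5) rose by 1.29, 1.29 and 0.61. *Adar* and *Herc6* read -0.05 and -0.17 and did not pass. *Ifit3* rose by 1.97, but it has a close copy, *Ifit3b*, and reads shared between them leave each value uncertain. *Ddx58*, *Dhx58* and *Ifih1* encode RNA helicases of the wider family of *Ddx5*.

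The guanylate-binding proteins and immunity-related GTPases, which attack vacuoles of intracellular microbes, rose. All 12 tested members rose, against 24.0% of all tested genes, with a median of 0.91. Among them *Iigp1*, under 1 FPKM in every control library, passed the filter through the knockdown alone and could only rise. *Gbp5* read 8.82, 12.5 and 9.71 FPKM in the control and 27.6, 28.7 and 28.9 FPKM in the knockdown, a rise of 1.39 (limma adjusted p = 2.5e-06). *Gbp2*, the most abundant of them per length, read 124, 119.9 and 105 and 208, 220.2 and 222 FPKM, a rise of 0.90. *Irgm2*, a regulatory GTPase of the group, rose by 1.17 and *Iigp1*, an effector, by 1.35. When each library was left out in turn, between 10 and 11 of the 12 stayed called up, and between 28 and 30 of the 37 interferon-stimulated genes. The Gbp genes lie in clusters of similar copies on chromosomes 3 and 5, so single values carry that uncertainty.

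The promoters of these genes were read from RefSeq windows of 250 bases before to 50 bases after the start site. A window was found for 27 of the 37 interferon-stimulated genes and 9 of the 12 GTPases. The letters GAAANNGAAA, the core of the interferon-stimulated response element, stood on either strand in 12 of the first (44.4%) and 8 of the second (88.9%). The share was 3.46% over the 8580 tested genes with a window and 3.44% over all 32851 windows. The stretches are shown for 5 of the called genes described above that have an element before the start, to let the shared letters be seen. They run 5′ to 3′ along the gene. The element reads GAAANNGAAA or its reverse complement TTTCNNTTTC, and the capitals mark only the match nearest to the start site. Further matches stand in the lower-case letters of *Ifit1* and *Isg15*, in *Isg15* also overlapping the capitals.
Ifit1: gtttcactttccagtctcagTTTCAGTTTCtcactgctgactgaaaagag
Isg15: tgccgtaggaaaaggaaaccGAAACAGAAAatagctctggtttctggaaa
Gbp5: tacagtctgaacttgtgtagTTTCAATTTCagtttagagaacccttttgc
Irgm2: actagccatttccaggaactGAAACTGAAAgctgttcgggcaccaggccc
Gbp2: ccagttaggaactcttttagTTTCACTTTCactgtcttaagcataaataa
The windows are those of GRCm38.p6 and were placed on GRCm39 by exact match. In that build the *Ifit1* stretch lies at chr19:34618184-34618233, 76 bases before the start site, that of *Isg15* at chr4:156285312-156285361 (57 bases before it), that of *Gbp2* at chr3:142326345-142326394 (50 bases) and that of *Irgm2* at chr11:58105719-58105768 (55 bases). The *Gbp5* stretch lies at chr3:142202510-142202559 (156 bases). A match is a description of these letters and no evidence of binding.

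Chemokines mostly rose, with exceptions. Of 9 tested CC chemokines 7 rose and 1 fell (median 1.34). *Ccl3*, a ligand of CCR1, read 0.0758, 0.743 and 0.135 FPKM in the control and 8.96, 10.8 and 11.1 FPKM in the knockdown, a rise of 3.13 (limma adjusted p = 1.9e-07). *Ccl3* passed the filter through the knockdown alone and could only rise. *Ccl20*, the ligand of CCR6, went from 22.8, 26.9 and 16.5 to 79.3, 90.1 and 87.8 FPKM and rose by 1.94. The monocyte attractants *Ccl2* and *Ccl7*, already abundant, rose by 1.07 and 1.18, and *Ccl8* fell by 0.72, a call lost without control replicate 2 (-0.52) and without knockdown replicate 1. Of 11 CXC and CX3C genes and a decoy receptor, 9 rose and 1 fell. *Cxcl3*, a neutrophil attractant, went from 347, 301 and 246 to 1606, 1786 and 1657 FPKM, a rise of 2.51. *Cxcl12*, the stromal ligand of CXCR4, rose by 2.09 and *Cxcl5* by 1.11. *Cxcl1*, the most abundant of the list, read 2334, 1834 and 1589 FPKM in the control and 1998, 2159 and 2059.6 FPKM in the knockdown, groups that overlapped, with a difference of 0.13 (limma adjusted p = 0.64). *Cxcl11*, an interferon-inducible ligand of CXCR3, fell by 0.59, and lost the call in 4 of the 6 fits with 1 library left out.

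Cytokine genes went both ways. *Il6* read 29.9, 27.7 and 18.0 FPKM in the control and 79.9, 86.4 and 97.1 FPKM in the knockdown, a rise of 1.79 (limma adjusted p = 1.5e-05). Its signalling chain *Il6st* rose by 0.97. *Clcf1* and *Lif*, ligands of the same receptor family, fell by 1.61 and 0.96. *Tnfrsf11b*, the decoy receptor osteoprotegerin, fell by 1.14, and *Csf1*, the macrophage growth factor, by 0.45. In all, 4 of 13 cytokine and receptor genes rose and 5 fell. NF-κB subunits and their inhibitors moved less, with 10 of 30 up (33.3%) and 5 down (16.7%) and a median of 0.13. Over all tested genes 24.0% rose and 22.7% fell. *Nfkbia* and *Tnfaip3*, the standard feedback inhibitors, read -0.08 and 0.26 and did not pass, *Nfkb1* rose by 0.51, and *Tnip1*, a partner of TNFAIP3, rose by 1.16. Of 19 genes of MHC class I and its proteasome, 5 rose (26.3%) and 2 fell (10.5%), with a median of 0.02, and the falls numbered 1 to 2 with 1 library left out. Among prostaglandin and arginine enzymes *Ptges*, which makes prostaglandin E2, rose by 1.30, whereas *Ptgs2* (COX-2) differed by -0.13 and did not pass. The antioxidant *Sod2*, a mitochondrial dismutase, rose by 1.09, and genes of glutathione supply such as *Slc7a11* and *Gclc* fell by 1.49 and 0.72. The antioxidant and metal list as a whole had 10 up (28.6%) and 9 down (25.7%) of 35, near the shares over all tested genes.

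Immediate-early and ERK-feedback genes fell. Of 22 immediate-early factors tested, 17 fell and 0 rose (median -0.53). *Egr1*, the zinc-finger factor that answers growth signals within minutes, read 68.1, 57.9 and 51.3 FPKM in the control and 2.38, 2.29 and 1.59 FPKM in the knockdown. It fell by 4.28 (standard error 0.23, limma adjusted p = 2.8e-07). *Ier2* and *Ier5*, nuclear proteins of the same class, fell by 1.73 and 1.58. The AP-1 subunits *Jun* and *Fosl1* fell by 1.41 and 1.40, whereas *Junb*, *Jund* and *Fosl2* read -0.27, -0.21 and 0.24 and did not pass. *Myc*, a growth regulator, fell by 0.48, from 171, 162 and 171 to 121, 122 and 117 FPKM.

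Of 18 genes that answer and damp ERK, 12 fell and 3 rose (median -0.46). *Dusp5*, a nuclear phosphatase of ERK, read 64.2, 39.2 and 44.3 FPKM in the control and 2.00, 2.46 and 2.13 FPKM in the knockdown, a fall of -3.95 (standard error 0.16, limma adjusted p = 4.8e-08). *Dusp4*, also nuclear, went from 13.4, 10.3 and 11.0 to 1.05, 1.04 and 1.02 FPKM (-2.62). *Dusp6*, the cytoplasmic ERK phosphatase, went from 36.0, 28.4 and 26.7 to 6.49, 6.53 and 6.54 FPKM (-2.05). In all 3 the groups were far apart. *Spry2*, which blocks Ras activation, fell by 1.51, the ETS factors *Etv5* and *Etv4* by 1.17 and 0.72, and *Hbegf*, an EGF receptor ligand, by 1.51. *Spry2*, under 1 FPKM in every knockdown library, passed the filter through the control alone and could only fall. The exceptions were *Dusp1*, which prefers p38 and JNK and rose by 0.61, *Dusp8* (0.64) and the EGF receptor ligand *Ereg* (0.97). Leaving out each library in turn kept between 11 and 12 of these falls and between 16 and 17 of the immediate-early falls. CArG boxes, the sites of serum response factor, stood on either strand in 2 of 17 immediate-early and 1 of 13 ERK-feedback promoters with a window (11.8% and 7.69%), against 1.50% of the tested genes with a window.

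**Figure D3:**
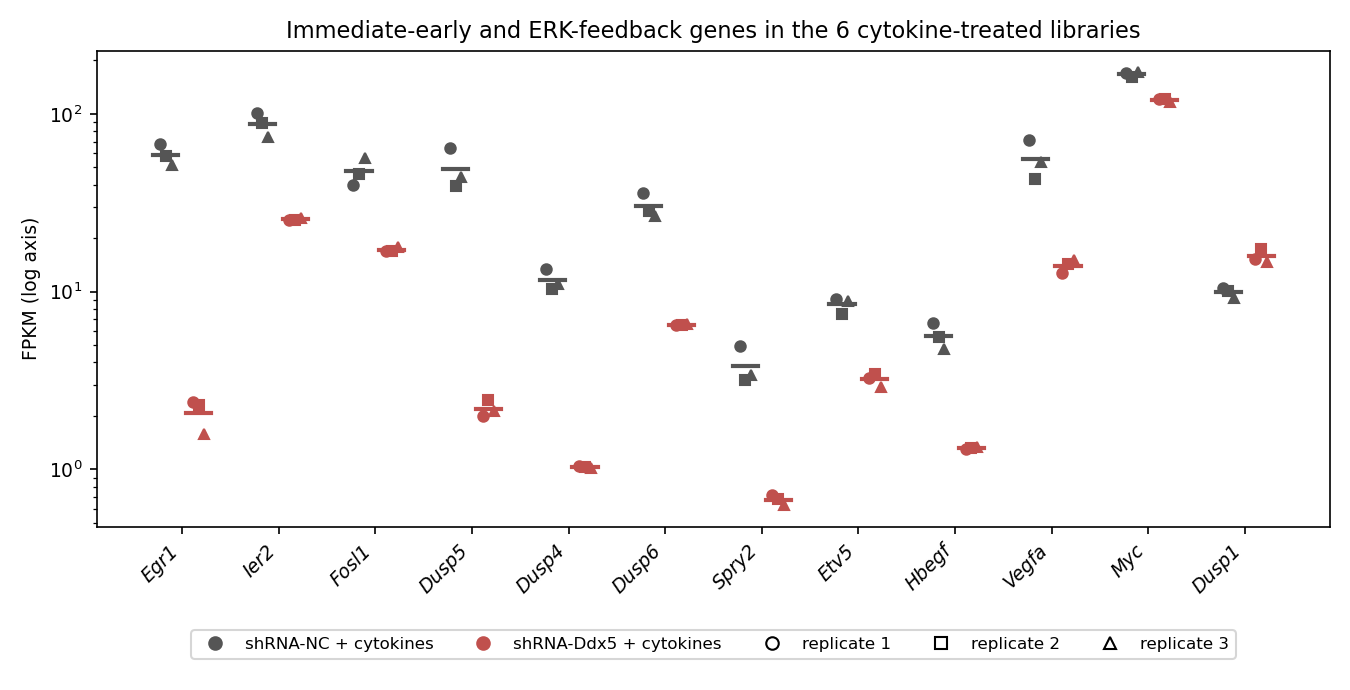
FPKM on a log axis for 12 immediate-early and ERK-linked genes in the 3 shRNA-NC (grey) and 3 shRNA-*Ddx5* (red) libraries with cytokines, drawn as in the plot of innate genes. The red points lie below all grey points in 11 genes, with the widest gaps in *Egr1* and *Dusp5*, and above them in *Dusp1*.

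Genes upstream of ERK and growth factor genes fell more often than they rose. Of 36 Ras, MAP kinase and PI3K core genes 16 fell and 4 rose (median -0.27). The scaffold *Gab2* fell by 1.21, the catalytic subunit *Pik3ca* by 0.95 and the Ras exchange factors *Sos2* and *Sos1* by 0.89 and 0.75. The kinase *Mapk3*, which is ERK1, read 0.06 and did not pass. Of 25 growth factors and receptors 15 fell and 7 rose (median -0.37). *Vegfa*, the angiogenic factor, read 71.1, 43.2 and 54.0 FPKM in the control and 12.8, 14.3 and 15.02 FPKM in the knockdown, a fall of -1.90 (limma adjusted p = 3.7e-06). The receptor *Met* and the FGF receptor *Fgfr1* fell by 1.24 and 0.70. *Ptn* (pleiotrophin) and *Angpt1* (angiopoietin 1) rose by 1.90 and 1.60.

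The matrix outside the fibrillar collagens rose. Of 10 tested non-fibrillar collagens 7 rose and 0 fell (median 1.20). *Col12a1*, a collagen that sits on fibrils, read 2.09, 3.10 and 2.60 FPKM in the control and 21.0, 18.7 and 18.6 FPKM in the knockdown, a rise of 2.51 (limma adjusted p = 2.1e-07). *Col6a1* and *Col6a2*, chains of the beaded filaments around chondrocytes, rose by 2.13 and 2.17, whereas their partner *Col6a3* read -0.34 and did not pass. Of 19 small leucine-rich proteoglycans and elastic-fibre genes 12 rose and 1 fell. *Dcn* (decorin) went from 0.0569, 0.381 and 0 to 4.43, 4.12 and 5.10 FPKM, a rise of 2.29, and *Aspn* (asporin) rose by 2.00. *Dcn* passed the filter through the knockdown alone and could only rise. *Lox*, the lysyl oxidase that cross-links collagen, was the one that fell, by 0.45. Of 25 adhesive glycoproteins 17 rose and 4 fell. *Sparc*, a collagen-binding protein, went from 83.2, 78.1 and 95.7 to 407, 417 and 374 FPKM, a rise of 2.21. *Thbs1* (thrombospondin 1) and *Postn* (periostin) rose by 1.77 and 1.76. *Ccn1* and *Ccn2*, matricellular targets of YAP and of serum response factor, fell by 1.26 and 0.71.

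Regulators of cartilage and bone were divided. *Sox9*, the master factor of cartilage, read 8.38, 9.51 and 8.38 FPKM in the control and 5.08, 5.85 and 5.27 FPKM in the knockdown and fell by 0.61 (limma adjusted p = 1.7e-04). Of 6 osteoblast markers 3 were tested, and these rose, *Alpl* and the factor *Sp7* (1.83) with the peptidase *Phex* (0.43). *Sp7*, at 0.331 to 0.934 FPKM in the control, passed the filter through the knockdown alone and could only rise. Of the untested markers *Ibsp* was higher in the knockdown and *Bglap* overlapped. *Dmp1* read at most 0.121 FPKM in the control and 0 in the knockdown. *Runx2*, needed for bone and for hypertrophic cartilage, rose by 0.27, and neither *Phex* nor *Runx2* passed in most fits with 1 library left out. Of 33 BMP and TGF-β genes 15 rose and 10 fell. *Bmp4* rose by 1.66 and its antagonist *Grem1* (gremlin 1) by 2.14. *Smad6*, the inhibitory SMAD of the BMP branch, and *Id1*, a BMP target, rose by 1.91 and 0.99. *Inhba*, a subunit of activin, and its antagonist *Fstl3* fell by 1.85 and 1.23, and *Smad3*, a transducer of the TGF-β branch, by 1.07. In the IGF axis, *Igf2bp2*, *Irs2* and the receptor genes *Igf2r* and *Igf1r* fell by 1.20, 0.95, 0.75 and 0.56 while the binding proteins described above rose. Among 26 contractile and actin genes 12 rose, led by the calponin *Cnn2* (1.52) and the receptor *Pdgfrb* (1.38), and 6 fell, led by *Vim* (vimentin, -0.68). Of 27 Wnt genes 7 rose and 7 fell, 25.9% each, near the 24.0% and 22.7% of all tested genes. *Wwtr1*, the YAP partner TAZ, fell by 1.67. Proteases and inhibitors rose in 16 of 34 and fell in 8, with *Mmp3* (stromelysin 1) at 2.29 and *Timp1* at 1.61 up and the cathepsin *Ctsh* down by 1.53. Without knockdown replicate 1 5 of them fell.

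Mitotic genes rose. Of 49 G2/M genes tested, 36 rose and 2 fell, with a median of 0.55. *Ube2c*, the ubiquitin-conjugating enzyme of the anaphase-promoting complex, read 74.3, 76.8 and 66.0 FPKM in the control and 151, 169 and 164 FPKM in the knockdown, a rise of 1.15 (limma adjusted p = 1.2e-05). *Cdc20*, an activator of the same complex, went from 48.4, 62.0 and 58.7 to 121, 126 and 111 FPKM (1.08). The kinases *Plk1*, *Aurkb* and *Cdk1* rose by 0.97, 0.94 and 0.77, and *Ccnb1* (cyclin B1) by 0.96. *Mki67*, the proliferation marker Ki-67, read 0.01 and did not pass, and *Cenpf* and *Smc4* fell by 0.74 and 0.62, both calls lost in most fits with 1 library left out. DNA replication genes rose in 21 of 50 cases and fell in 4, with a smaller median of 0.21, and with 1 library left out 15 to 22 rose and 1 to 3 fell, the fewest falls without knockdown replicate 2. *Tk1* and *Tyms*, enzymes of thymidine supply, rose by 1.29 and 1.20, and *Pcna* read -0.15 and did not pass. Targets of p53 fell in 14 of 28 and rose in 1. *Cdkn1a*, the inhibitor p21, went from 7.50, 6.999 and 6.79 to 1.49, 2.04 and 1.65 FPKM, a fall of -1.58, and the single rise was of the death receptor *Fas* (1.95), which NF-κB and interferons also induce.

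The CHR element of mitotic promoters, with the letters TTTGAA, was in 31 of 40 G2/M promoters with a window on either strand (77.5%). Over the tested genes with a window the share was 13.9%, and over all windows 17.9%. Examples from genes described above follow, with the element in capitals and the reverse strand reading TTCAAA.
Ube2c: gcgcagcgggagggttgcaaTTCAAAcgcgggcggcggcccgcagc
Cdc20: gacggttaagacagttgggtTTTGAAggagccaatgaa
Cdk1: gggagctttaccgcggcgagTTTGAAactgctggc
On GRCm39 the *Ube2c* stretch lies at chr2:164611800-164611845, that of *Cdc20* at chr4:118294541-118294578 and that of *Cdk1* at chr10:69188743-69188777. The elements end 24, 13 and 10 bases before the start sites.

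Metabolic genes rose in 2 groups. Of 39 sterol and fatty acid genes 28 rose and 3 fell (median 0.52). *Mvk* (mevalonate kinase) went from 12.4, 19.6 and 18.0 to 54.9, 55.7 and 50.3 FPKM, a rise of 1.65 (limma adjusted p = 3.0e-05). *Insig1*, which holds the SREBP complex in the endoplasmic reticulum, rose by 1.27, and the factor *Srebf2*, which drives these genes, by 0.53. *Elovl5*, a fatty acid elongase, fell by 1.50. The letters CCAAT stood on either strand in 25 of 29 sterol promoters with a window (86.2%) against 43.9% of the tested genes with a window. Of 33 glycolytic and hypoxia genes 23 rose and 3 fell (median 0.57). *Hif1a*, the oxygen-regulated factor, went from 35.7, 34.3 and 27.6 to 91.1, 90.7 and 101 FPKM, a rise of 1.52. *Pfkl*, *Pgam1* and *Ldha*, enzymes of glycolysis, rose by 1.30, 0.78 and 0.76, whereas the hypoxia targets *Vegfa* and *Ndrg1* fell, *Ndrg1* by 1.41. *Gapdh* has many processed copies in the mouse genome and its FPKM of 6.66, 7.16 and 9.41 in the control and 10.8, 92.0 and 56.3 in the knockdown is uncertain. Its rise of 2.20 rested on knockdown replicates 2 and 3 and was lost without either of them or without control replicate 1.

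Of 42 genes of ATF4 and the unfolded protein response 19 fell and 6 rose (median -0.25). *Ddit3* (CHOP) went from 44.0, 32.4 and 36.3 to 15.4, 15.6 and 15.1 FPKM, a fall of -1.23 (limma adjusted p = 1.1e-05). *Trib3*, a pseudokinase it induces, and the ER chaperone *Hspa5* (BiP) fell by 1.52 and 0.77, and *Atf4* itself read -0.39 and did not pass. *Dnajb11* and *Pdia6*, which fold secreted proteins, rose by 0.69 and 0.64. Of 30 heat shock genes 14 fell and 4 rose (median -0.28). *Hspa8*, the constitutive HSC70, went from 2422, 1280.0 and 1487 to 766, 761 and 753 FPKM and fell by 1.13. *Hsp90aa1* fell by 0.95. *Serpinh1*, the collagen chaperone HSP47, rose by 0.56. Control replicate 1, with its larger mitochondrial share, stood highest in both lists. Its mean log2 level over the ATF4 and unfolded-protein genes was 5.76, against 5.48 and 5.58 in the other controls and 5.29 to 5.36 in the knockdown. Its heat shock genes summed to 8682 FPKM, against 6042 and 6752 in the other controls and 4618 to 4785 in the knockdown. The part of that library was not tested beyond leaving it out. Without it 16 and 13 genes of these lists fell, and *Ddit3*, *Hspa5* and *Hspa8* read -1.11, -0.54 and -0.86.

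Several genes were nearly lost. *Pate14*, of the PATE family of small secreted proteins, read 81.7, 54.2 and 70.7 FPKM in the control and 0.782, 1.12 and 0.821 FPKM in the knockdown, the largest fall by the rule (-5.18, limma adjusted p = 1.0e-08). The proliferin *Prl2c2*, a prolactin-like hormone, went from 634, 227 and 339 to 28.0, 29.5 and 33.4 FPKM (-3.55), and *Prl2c3* fell by 3.04. Proliferin genes are close copies, and reads may be split between them. Control replicate 1 was the highest library for *Prl2c2*. *Hmga2*, a chromatin protein of embryonic and transformed cells, went from 50.9, 34.9 and 33.4 to 5.88, 6.18 and 6.36 FPKM (-2.49), and *Hmga1* and its retrogene *Hmga1b*, which share sequence, fell by 2.49 and 2.47. *Sox4*, a factor of progenitor cells, went from 126, 106 and 122 to 21.5, 20.8 and 23.7 FPKM (-2.37). The remaining falls of the rule were *Gprc5a*, an orphan receptor induced by retinoic acid (-2.90), *Clip3*, a microtubule linker (-2.78), *Tmem98*, a membrane protein (-2.54), *Dmrta2*, a factor of neural progenitors (-2.50), and *Gpr137b*, a lysosomal membrane protein (-2.23), besides *Egr1*, *Dusp5* and *Dusp4*. *Clip3*, *Tmem98* and *Dmrta2* passed the filter through the control alone and could only fall.

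**Figure D4:**
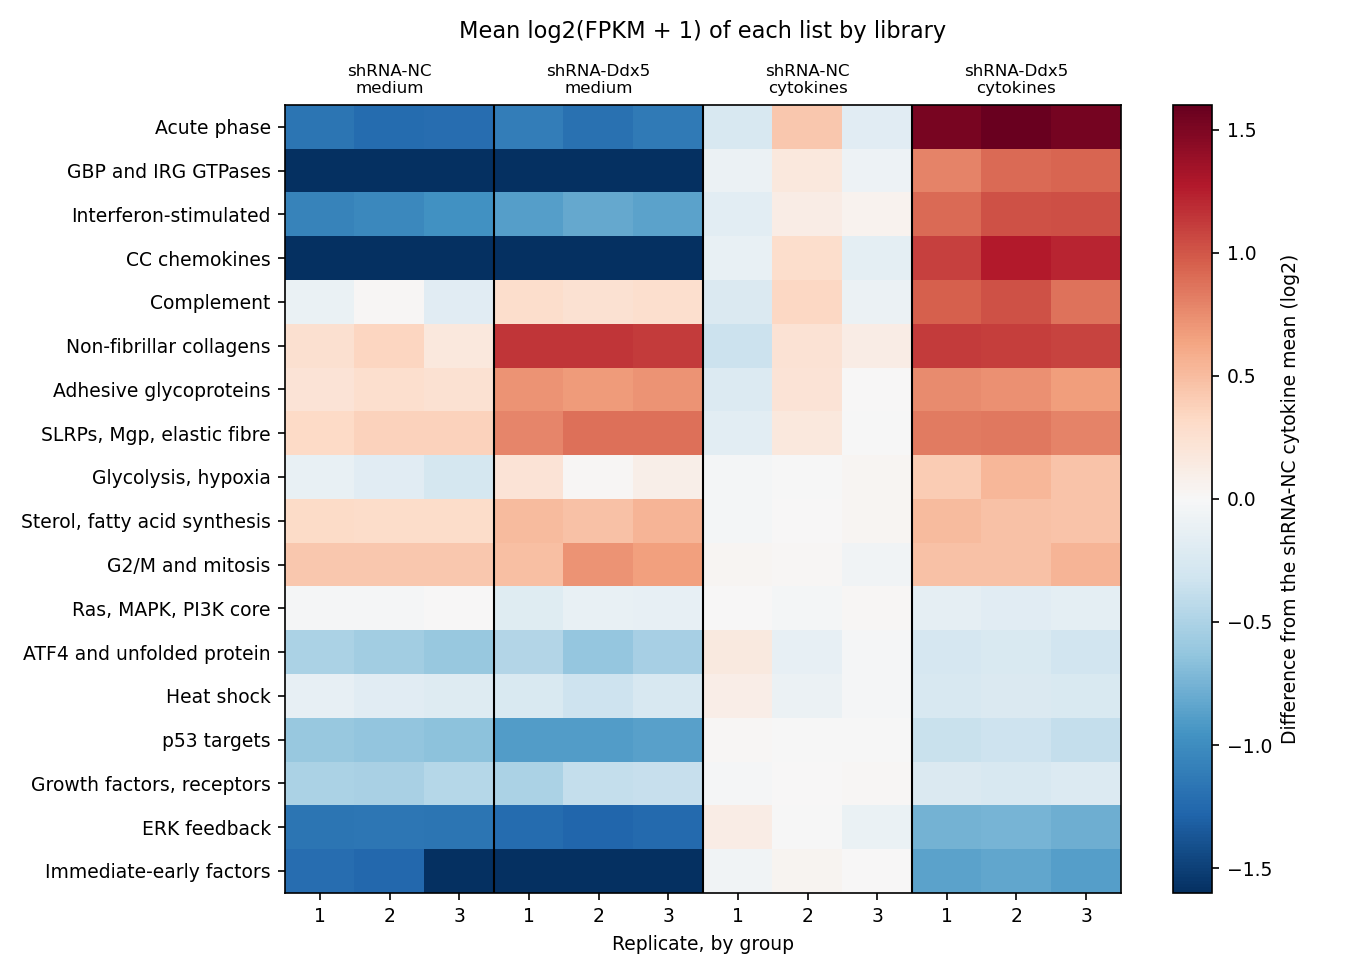
Mean log2(FPKM + 1) of the tested members of 18 lists in each of the 12 libraries, as a difference from the mean of the 3 shRNA-NC libraries with cytokines (red higher, blue lower, scale in log2 units, with values past its ends in the end colour). With cytokines the upper 11 rows are higher and the lower 7 rows are lower in shRNA-*Ddx5*, and control replicate 2 is nearest to the knockdown in several immune rows.

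The same contrast in unstimulated cells shares no library with that in cytokines. Both were taken from the same fit with a shared estimate of the spread, so the calls are not independent. In medium 5492 genes (47.0%) were called. Of the genes tested 25.4% were higher and 21.5% lower in the knockdown, the shares against which list counts in medium have to be read. Of the genes called with cytokines 68.1% were also called in medium, and of those called in medium 67.8% with cytokines. The 3726 shared calls had the same direction in 3599 and opposite directions in 127. In medium 7 of the 10 non-fibrillar collagens rose and 1 fell. Of the 49 G2/M genes 27 rose and 7 fell in medium, against 36 and 2 with cytokines. *Igfbp5* rose by 4.65 in medium and 4.64 with cytokines. *Mgp* rose by 3.56 and 3.48, and *Pate14* fell by 4.61 and 5.18.

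The interaction, the knockdown's effect with cytokines minus that in medium, passed an adjusted p of 0.05 for 941 genes (8.05%), 406 positive and 535 negative (3.47% and 4.57%). It was positive for 13 of 18 acute-phase genes, 23 of 37 interferon-stimulated genes and 9 of 12 GTPases, and negative for none of them. In medium the same lists had 2, 10 and 0 rises and 2, 4 and 3 falls. These counts depended on the scale, because many of these genes were close to 0 in medium, where an added 1 hides a relative change. *Saa3* was at or under 0.418 FPKM in each unstimulated library, and at 0 in the 3 controls. With 0.1 added in place of 1, the interaction was positive for 10, 14 and 6 of the 3 lists, and with voom weights on recovered fragments for 5, 12 and 4. *Saa3* itself (interaction 4.11, limma adjusted p = 0.0058) did not pass under either, and *Il6*, *Fas* and *Cd74* turned negative. *Irf7* (2.11), *Ifit1* (1.88) and *Gbp2* (1.25), with control means of 0.417, 1.13 and 3.70 FPKM in medium, kept the call under both. *Gbp2* fell in medium by 0.35 and rose with cytokines by 0.90. The interaction was negative for 11 of 18 ERK-feedback genes and positive for 3, and with 0.1 added for 10 and 2. *Egr1* differed by -0.55 in medium, where the mean control level was 2.69 FPKM, and did not pass there. Of the 22 immediate-early genes 10 fell and 1 rose in medium, and the interaction was negative for 6 and positive for 0. *Jun* read -1.43 in medium and -1.41 with cytokines. *Spry2* and *Etv5* differed by 0.23 and -0.02 in medium without passing. *Cxcl1* rose by 2.39 in medium, from 4.17 to 25.2 FPKM on average, but not with cytokines. Some genes moved in opposite directions. *Pdk4*, a kinase that closes pyruvate dehydrogenase, rose by 1.41 in medium and fell by 0.91 with cytokines, and *Plau* (urokinase) rose by 1.66 and fell by 0.31, the fall not passing in most fits with 1 library left out. *Csf1* rose by 0.91 and fell by 0.45. The stress lists also shifted, since 16 ATF4 and unfolded-protein genes rose and 8 fell in medium, against 6 and 19 with cytokines, with a negative interaction for 7 of 42.

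**Figure D5:**
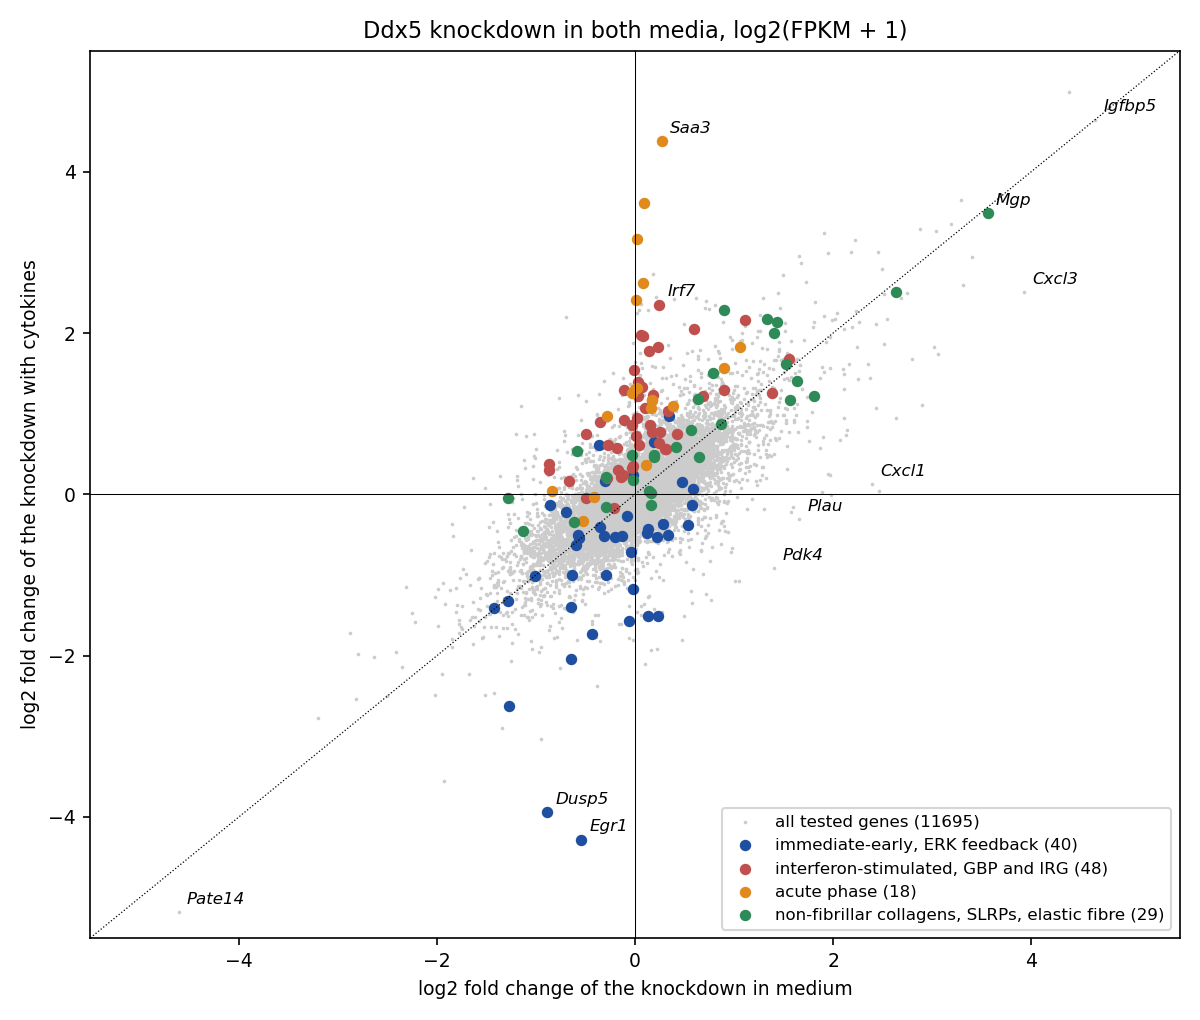
Log2 fold change of the knockdown in medium (x axis) and with cytokines (y axis) for each tested gene (grey), with 4 groups of lists coloured and the dotted line marking equal effects. Interferon, GTPase and acute-phase genes lie mostly above the line, many near 0 on the x axis, immediate-early and ERK-feedback genes mostly below it, and matrix genes along it.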

How the data were processed

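In 12 libraries, RNA of ATDC5 cells (shRNA-NC or shRNA-*Ddx5*, with or without cytokines, 3 libraries per group) was sequenced as paired 150-nt reads. Per the labels, the authors aligned with HISAT2 2.0.5 to mm10 and counted with featureCounts 1.5.0-p3. Strandedness was not given in the sources used here. The deposited values are FPKM for 46731 genes with GRCm39 coordinates, scaled between libraries by the authors. FPKM multiplied by gene length gave whole fragments within 0.01, which set the depths. The study describes its replicates under these conditions as biologically independent experiments, and p-values measure the spread between these libraries. Log2(FPKM + 1) of genes at 1 FPKM or more in at least 3 of the 6 cytokine libraries was fitted with limma 3.58.1 (trend) in R 4.3.3 over all 12 libraries as 4 group means, because the values are not counts. P-values were Benjamini-Hochberg adjusted over the 11695 genes, with a threshold of 0.05. The procedure was tested on simulated data. Named genes were the 15 largest rises and falls with separated groups, up to 5 per list and direction, the 10 largest interactions in each direction and members needed for their role. The last include all genes given as not passing. Some genes that the rule names are not reported here. The members and lists were chosen with earlier results of these data known. Alternatives covered the pseudocount, filter, scaling, replicate block, trend, voom weights and each library left out. Promoter windows came from RefSeq on GRCm38.p6. Python 3.11.15 was used for the summaries.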

Additional observations from a re-analysis of the deposited data

Results flagged for a closer look

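The knockdown's effect differed between cytokines and medium by the interaction test (limma, adjusted p under 0.05) for 941 of 11695 genes, among them 81 of the genes named in the text. Values are the log2 effect with cytokines minus that in medium. Of 81, 43 were called in every alternative in which they were tested. Among immune and stress-response genes the value was positive for *Saa3* 4.11, *Lcn2* 3.52, *Ptx3* 3.14, *Ccl3* 3.13, *Serpina3g* 2.55, *Steap4* 2.40, *C3* 2.24, *Irf7* 2.11, *Ifit3* 1.91, *Ifit1* 1.88, *Ccl20* 1.81, *Tnip1* 1.66, *Isg15* 1.60, *Ifit3b* 1.55, *Usp18* 1.46, *Dhx58* 1.41, *Gbp5* 1.36, *Lbp* 1.30, *Iigp1* 1.30, *Saa2* 1.28, *Gbp2* 1.25, *Sod2* 1.17, *Il6* 1.13, *Irf1* 1.05, *Ptges* 1.03, *Irgm2* 1.00, *Hp* 1.00, *Cxcl12* 0.97, *Mt1* 0.88, *C1ra* 0.83, *Slc39a14* 0.77, *Stat2* 0.71, *Ifih1* 0.57 and *Il6st* 0.43, and negative for *Cxcl1* -2.27, *Cxcl5* -1.79, *Clcf1* -1.45, *Cxcl3* -1.42, *Csf1* -1.36, *Ccl8* -1.05 and *Lif* -0.99. Among immediate-early, ERK and growth factor genes it was positive for *Angpt1* 1.12, *Dusp1* 0.98 and *Dusp8* 0.45, and negative for *Egr1* -3.74, *Dusp5* -3.06, *Spry2* -1.74, *Hbegf* -1.64, *Ier5* -1.52, *Dusp6* -1.40, *Dusp4* -1.35, *Ier2* -1.30, *Ccn2* -1.16, *Etv5* -1.15, *Vegfa* -0.95, *Etv4* -0.68 and *Myc* -0.60. Among the other named genes it was positive for *Dcn* 1.39, *Cd74* 1.33, *Igfbp3* 1.31, *Pdgfrb* 1.23, *Tmem176b* 1.19, *Pfkl* 1.12, *Insig1* 1.10, *Fas* 0.99, *Grb14* 0.93, *Smad6* 0.93, *Lox* 0.68, *Cdc20* 0.57 and *Ddx17* 0.49, and negative for *Pdk4* -2.32, *Prl2c3* -2.09, *Sox4* -1.99, *Plau* -1.97, *Prl2c2* -1.63, *Gprc5a* -1.55, *Ccn1* -1.41, *Sp7* -1.19, *Cdkn1a* -1.14, *Hmga2* -0.97 and *Smad3* -0.95. No explanation of these differences was tested. With 3 libraries a group, single libraries were not screened for extreme values.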

How the results depend on the processing

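The count of genes called with cytokines (5469) ran from 4730 to 5937 under the other settings, and that in medium (5492) from 4939 to 6284. Asking for an absolute log2 change of at least 1 left 785, 703 and, for the interaction, 222 of 941. With 1 library left out the counts were 4359 to 5139 with cytokines, 4544 to 5366 in medium and 513 to 1078 for the interaction. The interaction fell to 563, 574 and 513 without replicates 1, 2 and 3 of the knockdown with cytokines. It fell to 557 without replicate 3 of the knockdown in medium and to 582 without replicate 2 of the control in medium. It rose to 1078 without control replicate 2 with cytokines and to 996 without control replicate 3 in medium. All of these fits had 1 library fewer, and the part of that in the counts was not tested. Scaling to the sum of fragments moved the share of higher calls in medium from 54.2 to 42.3%, and with cytokines from 51.4 to 44.0%. Of 164 named genes called with cytokines, 155 passed in every alternative in which they were tested, and none changed sign. The exceptions, which lost the call in 2 or more of the fits with 1 library left out, had log2 fold changes in those fits of -0.37 to -0.30 (*Il4ra*), -0.94 to -0.52 (*Ccl8*), -0.83 to -0.43 (*Cxcl11*), -0.89 to -0.65 (*Cenpf*), -0.73 to -0.52 (*Smc4*), 0.29 to 0.53 (*Phex*), -0.42 to -0.23 (*Plau*), 0.16 to 0.33 (*Runx2*) and 1.59 to 3.07 (*Gapdh*). Among interactions, *Cd74*, *Fas* and *Il6* turned from positive to -0.37, -0.11 and -0.86 with 0.1 added and to -1.18, -0.46 and -2.75 with voom weights, where control levels are near 0 in medium. With cytokines, deviations from the group mean correlated between same-numbered libraries at -0.028, 0.144 and -0.087. Between libraries of unlike number these correlations ran from -0.119 to 0.1435. With 3 libraries a group, such values cannot decide whether the numbers pair the libraries, and the unstimulated libraries were not checked. The fit with the replicate block called 5089, 5135 and 657 genes. A fit to 6 libraries alone was not possible for the interaction. Fragments limit genes near the filter and those near 0 in medium, for which no relative change can be read.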

Other observations

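Lists not described above were divided. Over all tested genes 24.0% rose and 22.7% fell with cytokines. Of 24 cell adhesion and axon guidance genes 8 rose and 8 fell with cytokines (median -0.01), and the interaction was negative for 8 of them and positive for 2. Of 14 Notch and Hippo genes 2 rose and 5 fell (median -0.14). Of 9 tested cartilage genes 4 rose and 5 fell (2 to 4 and 2 to 5 with 1 library left out), and 26 of 35 were under the filter. Of 10 tested genes of lipid mediators and arginine metabolism 7 rose and 1 fell, or 0 to 2 with 1 library left out (median 0.50). The 3 tested genes of the proliferin and placental list fell. They were the close copies *Prl2c2* and *Prl2c3*, and *Pate14*, which is of the PATE family. The 1 tested adipocyte marker, *Fabp4*, rose, from at most 0.738 FPKM in the control to at most 2.03 FPKM and 30 fragments in the knockdown. It passed the filter through the knockdown alone and could only rise, and the other adipocyte markers read 0 in all 6 libraries. The 1 tested pluripotency marker did not pass.

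A κB motif, searched on both strands, was in 4 of 9 CXC and CX3C promoters with a window (44.4%) against 12.3% of the tested genes with a window. Among loci without a gene name, 35 rose and 25 fell of 164 tested, where 24.0% of all tested genes rose and 22.7% fell.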
